A study of Mus musculus with 10 samples.

Results

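The brightest probe sets of most cytosolic ribosomal protein genes changed little when *Max* was switched off in mouse embryonic stem cells (ESCs). In LIF and serum, 42 of 46 genes kept all 6 of their Dox folds within 1.5-fold, where 43.1% of all genes did. Of genes with a mean log2 signal of at least 12, which include most of the members and have a lower median signal, 73.1% did. Of 46 genes of cytosolic ribosomal proteins, 0 rose and 2 fell over the days of treatment with doxycycline (Dox), by limma with a threshold of 0.05 on the adjusted p (0 and 3 by the unadjusted p), where 5.75% of all 18193 genes rose and 5.33% fell. The 2 that fell were *Rps27* and *Rpl12*, and this count is near the share of all genes that fell. The median of the 46 genes stayed within 0.04 of 0 on the log2 scale on each of the 6 Dox arrays in LIF and serum, and it was -0.08 after Dox in 2i. Of the 33 probe sets of these genes with a mean log2 signal below 12, 10 fell late in the Dox course, those of *Rps27* and *Rpl12* included, where 5.4% of all named probe sets that dim did.

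The members were taken from the platform annotation by symbol. A probe set qualified when it carried 1 symbol, and that symbol was Rpl, Rps or Rplp followed by a number and at most 1 of the letters a, l and x, or *Rpsa*. The kinases of ribosomal protein S6 were left out. This gave 100 of 45037 probe sets and 46 of 18193 genes, each gene being read from its brightest probe set over the 10 arrays. There were 20 genes of the small subunit, 22 of the large subunit and 4 paralogues (*Rpl39l*, *Rpl3l*, *Rps27l* and *Rps4l*). A further 28 ribosomal protein genes, among them *Rpl3*, *Rpl5*, *Rpl10* and *Rplp1*, were named only on probe sets that carry several symbols, and were not analysed here.

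The cells were *Max*-null ESCs, male and of strain 129SV, in which both copies of the endogenous *Max* gene are disrupted and a *Max* cDNA at the ROSA26 locus is expressed under a tetracycline-off system, so that Dox turns it off. All groups, the untreated ones included, carry this deletion and this cDNA, and the sources do not say whether the line is 1 clone. In medium with leukaemia inhibitory factor (LIF) and serum there were 8 arrays, in 2 sets: untreated array 1 with Dox for 1, 2, 3 and 4 d, and untreated array 2 with Dox for 6 and 8 d. In 2i, which adds inhibitors of MEK and of GSK3β, there was 1 untreated array and 1 after 6 d of Dox. Biotin-labelled cRNA made from total RNA was hybridised to Affymetrix arrays, and the deposited values are log2 signals. Each Dox time had 1 array. The sources do not tell whether the untreated arrays in LIF and serum were made from different cultures. The main fits give each set its own level, so their p-values cover the spread of arrays within a set and no more. That spread may be technical. The difference between the untreated arrays goes into the levels of the sets, and these p-values do not cover it. The probe set of *Max* checks nothing, since the sources do not place it in the disrupted part or in the cDNA.

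Every ribosome holds 1 copy of nearly every ribosomal protein, so cells make these proteins in matched amounts, and their mRNAs are among the most abundant in a growing cell. Their genes are textbook targets of MYC, which binds DNA as a partner of MAX at the E-box, and their transcripts start with a run of pyrimidines, through which mTOR signalling and the RNA-binding protein LARP1 govern their translation. A microarray reads the amount of mRNA and not its translation.

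The RefSeq promoter table (GRCm38.p6, from 250 bases before to 50 bases after an annotated start) held 40 of the 46 genes. An unbroken run of at least 7 bases that are each C or T, on the strand of the gene and within 10 bases of a start, was found for 23 of these 40 genes (57.5%), against 22.5% of all 27025 genes in the table. The 30 bases around the start are shown for genes that the results turn on, with the run in capitals. Where a gene has several annotated starts, the one with the longest run is shown. *Rpl37a* has no such run at this start, and that of *Rps25* begins before the bases shown.
Rps27 (chr3:90213634-90213663, minus strand): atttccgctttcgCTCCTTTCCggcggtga
Rpl12 (chr2:32961697-32961726, plus strand): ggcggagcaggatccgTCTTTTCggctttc
Rps25 (chr9:44407699-44407728, plus strand): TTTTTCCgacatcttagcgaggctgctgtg
Rps24 (chr14:24490663-24490692, plus strand): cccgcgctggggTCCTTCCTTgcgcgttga
Rps9 (chr7:3704026-3704055, plus strand): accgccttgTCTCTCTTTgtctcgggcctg
Rpl37a (chr1:72711245-72711274, plus strand): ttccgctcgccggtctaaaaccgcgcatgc
Rpl39l (chr16:10170213-10170242, plus strand): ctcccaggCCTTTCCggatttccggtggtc
Rps6 (chr4:86857353-86857382, minus strand): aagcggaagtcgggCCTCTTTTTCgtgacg

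The E-box CACGTG, which reads the same on both strands, lay in the promoter windows of 4 of the 40 genes (10%), against 8.09% of all genes in the table. They were *Rpl13a*, *Rpl14*, *Rpl19* and *Rps19*, and the 30 bases around each E-box are shown because this is the sequence that MYC and MAX bind, with the motif in capitals. It began 200 bases before the start in *Rpl13a*, 168 in *Rpl14*, 19 in *Rpl19* and 120 in *Rps19*. *Rpl19* and *Rps19* have several annotated starts, and their distances hold for a single one of these. In *Rps19*, the windows of the other starts do not hold the E-box. A match describes the sequence and not a bound site.
Rpl13a (chr7:45128928-45128957, minus strand): cgctccgaaaccCACGTGacatcccgcccc
Rpl14 (chr9:120571337-120571366, plus strand): ccaagctcactgCACGTGtctgaggagaag
Rpl19 (chr11:98026679-98026708, plus strand): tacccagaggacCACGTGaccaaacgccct
Rps19 (chr7:24884781-24884810, plus strand): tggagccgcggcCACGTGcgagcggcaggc

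The probe sets of these genes were among the brightest on the arrays. The mean signal of the 46 brightest probe sets had a median of 13.6 on the log2 scale, and 35 of them lay in the top 1% of all probe sets (12.02 and above). Of the 59 genes with a mean of at least 13, 33 were ribosomal protein genes. *Rpl37a*, a large-subunit protein with a zinc finger, had the highest mean (14.30), and *Rps16*, a small-subunit protein, the lowest (2.88). The other members below 7 were *Rpl3l*, the muscle paralogue of *Rpl3*, at 4.79 and *Rpl39*, a small protein of the exit tunnel, at 6.06. Signals of different probe sets do not rank their mRNAs, since each depends on its own probes. Whether the brightest probe sets were near the upper limit of what the array can measure was not tested, and the highest signal on any array was 14.38.

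Both untreated arrays in LIF and serum gave nearly the same values for these genes. The median absolute difference between them was 0.12 on the log2 scale for the members and 0.35 for all genes. The exceptions were larger than many Dox effects: untreated array 2 was 1.06 below untreated array 1 for *Rpl27a*, 0.81 above it for *Rpl12*, 0.68 above it for *Rps27l*, 0.60 above it for *Rps24* and 0.58 above it for *Rps27*.

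Over the Dox course in LIF and serum, 42 of the 46 genes (91.3%) kept all 6 of their folds within 1.5-fold of the untreated array of their set, where 43.1% of all genes and 73.1% of genes with a mean of at least 12 did. The slopes of 42 genes (91.3%) lay within 0.05 per day of 0 on the log2 scale, where those of 54.4% of all genes and 65.4% of genes that bright did. All 35 bright members met both limits. The genes that bright include these members and are not matched to them in signal. Their median mean signal was 12.53, against 13.68 for the bright members, and the part of signal level in these shares was not tested. The median log2 fold of the members was -0.02 at 1 d, -0.00 at 2 d, 0.03 at 3 d, -0.01 at 4 d, -0.04 at 6 d and -0.03 at 8 d, while that of all genes ran from -0.10 to -0.04. For the 35 genes with a mean of at least 12, the 95% interval of the slope had a median half-width of 0.05 per day, and 0 of 35 passed in either direction (0 at an unadjusted p under 0.05), where 5.77% of the 208 genes that bright fell. The plot of folds by time shows the narrow band of the bright genes and the few that left it.

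**Figure D1:**
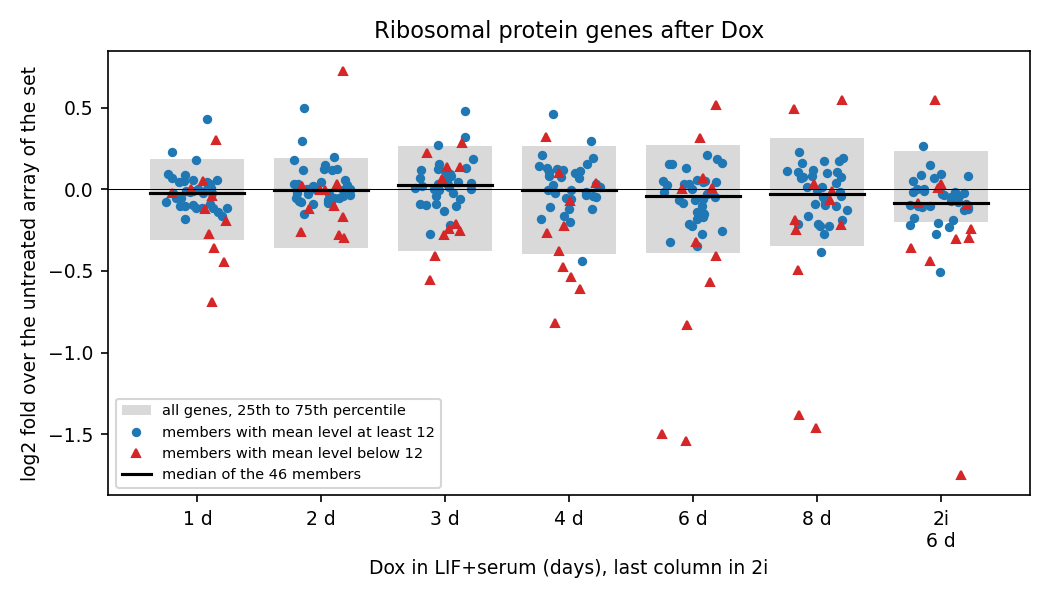
Log2 fold of each of the 46 ribosomal protein genes over the untreated array of its set (y axis) at each Dox time in LIF and serum and in 2i (x axis), with genes whose mean signal is at least 12 as circles and the others as triangles. The black bars are the medians of the members, between -0.08 and 0.03, the grey boxes run from the lower to the upper quartile of all genes, and the 2 triangles below -1.3 at 6 and 8 d are *Rps27* and *Rpl12*.

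*Rps27*, a zinc-finger protein of the small subunit also called metallopanstimulin, fell the most steeply. Its signal was 7.48 on untreated array 1 and 7.36, 7.36, 7.07 and 6.66 after 1, 2, 3 and 4 d of Dox, then 8.06 on untreated array 2 and 6.52 and 6.60 after 6 and 8 d. All 6 Dox arrays lay below both untreated arrays. The slope was -0.20 per day on the log2 scale (SE 0.03, 95% interval -0.27 to -0.13, adjusted p = 0.00661 from limma), and the 6 and 8 d arrays together were 0.354-fold untreated array 2 (adjusted p = 0.0068 from limma). The late log2 difference was -1.50 against untreated array 2, -0.92 against untreated array 1 and -1.21 against their mean (adjusted p = 0.0148 from limma). In 2i, the signal was 7.20 without and 7.21 with Dox. The trend rests on untreated array 2, since without that array the slope was -0.15 with an adjusted p of 0.325 from limma. It was -0.19 (adjusted p = 0.0956 from limma) within the set of untreated array 1 and 1 to 4 d.

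*Rpl12*, a large-subunit protein at the base of the stalk that recruits translation factors, fell later and less regularly. Its signal was 8.5 on untreated array 1 and 8.80, 9.22, 8.28 and 8.02 after 1, 2, 3 and 4 d of Dox, then 9.31 on untreated array 2 and 7.81 and 7.92 after 6 and 8 d. It was above untreated array 1 at 1 and 2 d, and below both untreated arrays from 3 d on. The slope was -0.18 per day (SE 0.05, 95% interval -0.29 to -0.07, adjusted p = 0.0472 from limma). It missed the threshold when any of the 1, 3, 4, 6 or 8 d arrays or untreated array 2 was left out, with adjusted p from 0.0536 to 0.646. The late fall held under each of these Dox arrays left out in turn. At 6 and 8 d the signal was 0.368-fold that of untreated array 2 (adjusted p = 0.00973 from limma). The late log2 difference was -1.44 against untreated array 2, -0.63 against untreated array 1 and -1.04 against their mean (adjusted p = 0.0461 from limma). In 2i the signal was 9.16 without and 9.06 with Dox. Each of these genes has 1 probe set with 1 symbol, so no second probe set shows the same fall.

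*Rps25*, a small-subunit protein needed by some viral internal ribosome entry sites, was the third with an unadjusted p under 0.05. Its signal was 9.52 on untreated array 1 and 9.08, 9.35, 8.97 and 8.91 after 1, 2, 3 and 4 d of Dox, then 9.27 on untreated array 2 and 8.44 and 8.78 after 6 and 8 d. The slope was -0.09 per day (95% interval -0.17 to -0.02, adjusted p = 0.122 from limma), and among the alternatives run for the trend it passed (adjusted p = 0.04 from limma) only when the 8 d array was left out. Its late difference was -0.66 against untreated array 2 (adjusted p = 0.116 from limma) and -0.79 against the mean of both untreated arrays (adjusted p = 0.041 from limma).

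**Figure D2:**
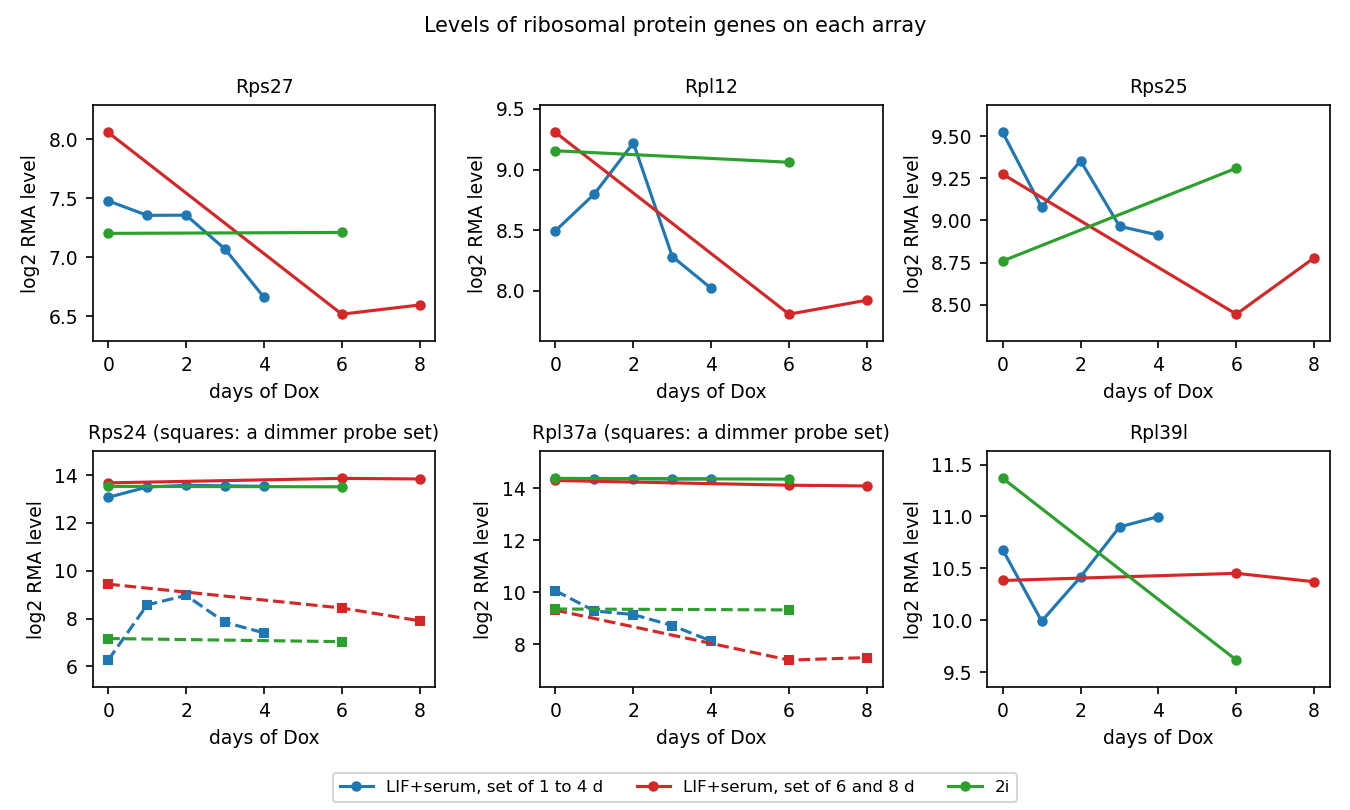
Log2 signal on each array (y axis) against days of Dox (x axis) for 6 ribosomal protein genes, with lines joining the arrays of a set and squares with dashed lines for a dimmer probe set of *Rps24* and *Rpl37a*. *Rps27* and *Rpl12* end lower in LIF and serum and stay level in 2i, the brightest probe set of *Rpl37a* stays between 14.09 and 14.38 while its dimmest goes from 10.05 to 7.38, and *Rpl39l* moves most in 2i.

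Pairs of Dox days, each set against the untreated array of its set, gave calls among the members only at 6 and 8 d. Dox for 1 and 2 d against untreated array 1 called 0 members in either direction (1 and 0 at an unadjusted p under 0.05, limma), where 0.247% of all genes rose and 0% fell. Dox for 3 and 4 d also called 0 (1 up and 2 down at an unadjusted p under 0.05, limma), where 6.23% of all genes rose and 3.46% fell. Dox for 6 and 8 d against untreated array 2 called 0 up (1 at an unadjusted p under 0.05, limma), where 5.86% of all genes rose, and 2 down, *Rps27* and *Rpl12*, where 5.88% of all genes fell. Among genes with a mean of at least 12, 0 of 35 members fell late, where 6.25% of 208 did.

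By subunit, the medians at 8 d were -0.01 for the 20 small-subunit genes and -0.08 for the 22 large-subunit genes on the log2 scale. *Rpsa*, the small-subunit protein also known as the laminin receptor, was 13.91 on untreated array 1 and 13.80, 13.82, 13.83 and 13.79 after 1 to 4 d, then 13.78 on untreated array 2 and 13.44 and 13.40 after 6 and 8 d. Its late difference was -0.36 (95% interval -0.81 to 0.08, adjusted p = 0.297 from limma). *Rps6*, the substrate of the S6 kinases, went the other way at 8 d, with a signal of 10.09 against 9.54 on untreated array 2, but 6 d gave 9.54 as well. *Rps24*, mutated in some cases of Diamond-Blackfan anaemia, was 13.07 on untreated array 1 and between 13.50 and 13.57 from 1 to 4 d, the largest positive difference of a bright member, and untreated array 2 (13.67) lay above all of these. *Rps19*, the gene most often mutated in that anaemia, had a slope of 0.03 per day (95% interval -0.02 to 0.09).

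The stalk and the 5S particle had intervals that included 0. *Rplp0*, the stalk's anchor, had a slope of -0.03 per day (95% interval -0.09 to 0.02), *Rplp2*, which forms the stalk's arms, 0.01 (-0.04 to 0.06), and *Rpl11*, which with 5S RNA binds MDM2, -0.02 (-0.08 to 0.04). *Rpl38*, which is needed for the translation of some Hox mRNAs in the embryo, had a slope of 0.00 (-0.05 to 0.06), and *Rps4x* of 0.00 (-0.05 to 0.06). *Rpl14*, one of the genes with an E-box, reached a late difference of -0.41 (95% interval -0.91 to 0.09, adjusted p = 0.301 from limma). The late differences of the other genes with an E-box were -0.15 for *Rpl13a*, 0.11 for *Rpl19* and 0.17 for *Rps19*.

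Away from these, the slopes were small in both directions. The steepest positive ones were those of *Rps6* (0.05 per day on the log2 scale), *Rps24* (0.04), *Rpl39l* (0.04), *Rpl27a* (0.03), *Rps19* (0.03), *Rps28* (0.03), *Rps20* (0.03) and *Rps14* (0.02), and the 95% interval of each included 0. After *Rps27*, *Rpl12* and *Rps25*, the steepest negative ones were those of *Rpl14* (-0.06), *Rps16* (-0.05), *Rpsa* (-0.04), *Rplp0* (-0.03) and *Rps9* (-0.03), again with intervals that included 0. *Rps29*, a zinc-finger protein of the small subunit, stayed between 13.97 and 14.10 on all 10 arrays.

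The largest positive late difference was that of *Rpl27a*, a large-subunit protein, at 0.50 (95% interval 0.03 to 0.98, adjusted p = 0.176 from limma). Its signal was 8.99 on untreated array 1 and 8.95, 8.69, 8.71 and 8.72 after 1, 2, 3 and 4 d of Dox, then 7.93 on untreated array 2 and 8.45 and 8.42 after 6 and 8 d. Both late arrays lay between the untreated ones.

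**Figure D3:**
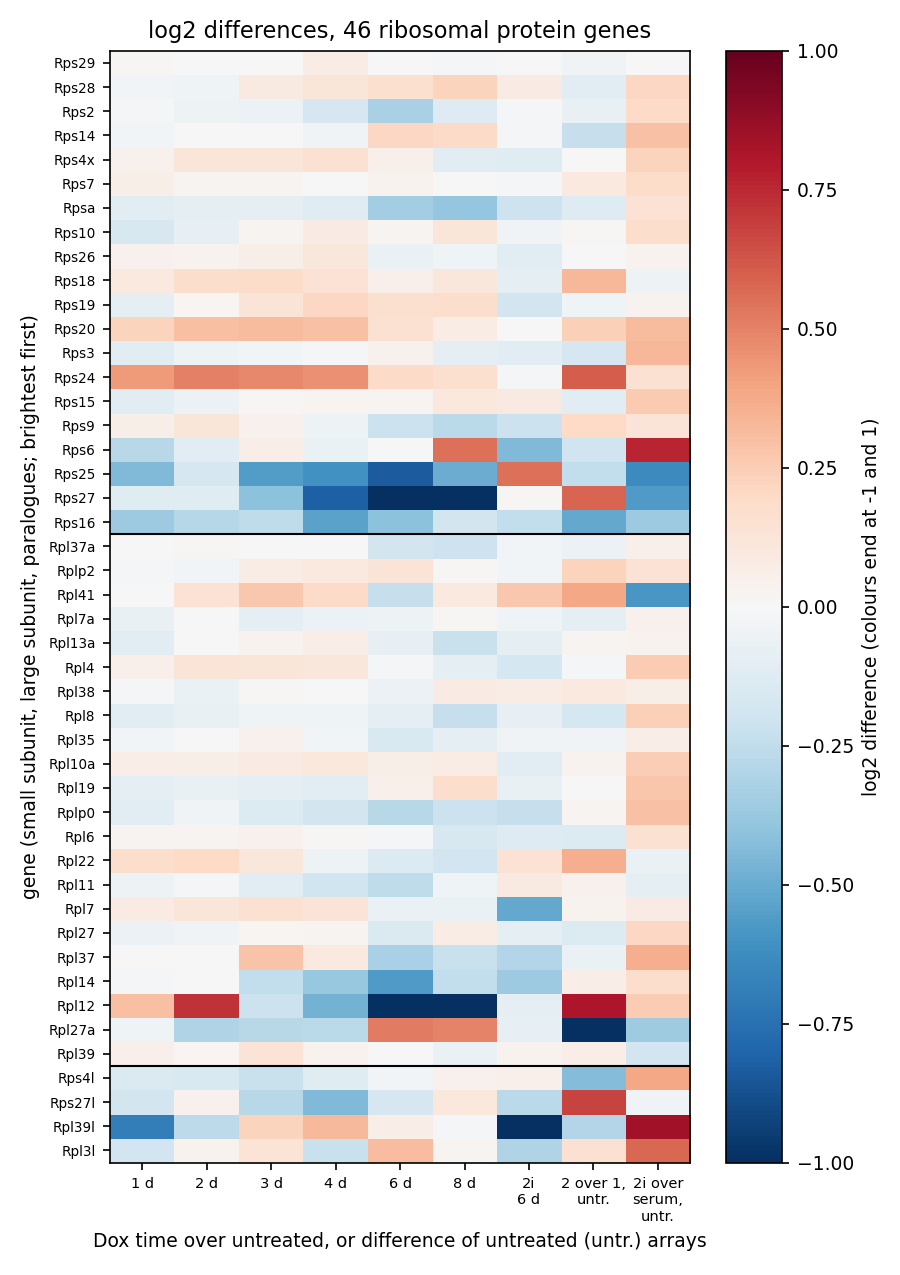
Log2 difference (colour, ending at -1 and 1) for each of the 46 ribosomal protein genes (rows, by subunit and brightness) at each Dox time over the untreated array of its set, and between untreated arrays (last 2 columns). Most rows are pale, the darkest blue cells in LIF and serum are the late cells of *Rps27* and *Rpl12*, and the column of untreated array 2 over 1 holds the darkest cell of *Rpl27a* (-1.06).

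Of the 4 paralogues, *Rpl39l* moved the most in 2i. It is the paralogue of *Rpl39* that serves the ribosomes of male germ cells. Its signal was 10.68 on untreated array 1 and 9.99, 10.42, 10.90 and 11 after 1, 2, 3 and 4 d of Dox, then 10.38 on untreated array 2 and 10.45 and 10.37 after 6 and 8 d. These arrays moved both ways around their untreated values, and the slope was 0.04 per day (95% interval -0.06 to 0.13, adjusted p = 0.682 from limma). In 2i, it was 11.37 without Dox, the highest of the 10 arrays, and 9.62 after 6 d, the lowest, which is 0.297-fold. *Rps27l*, the p53-induced paralogue of *Rps27*, was 12.21 on untreated array 1 and 12.03, 12.26, 11.94 and 11.77 after 1 to 4 d, then 12.89, 12.72 and 13 in the other set, so that the sets did not overlap. *Rps4l*, a copy of *Rps4x*, and *Rpl3l* had slopes of -0.01 and 0.01 per day. Probe sets of near-identical copies can share target, and 10 members were read from a probe set of the kind (ending in _x_at) that holds probes shared with other transcripts.

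In 2i, Dox moved the members little but mostly down. With 1 array in each group there was no test. The median log2 fold was -0.08, against 0.02 for all genes and -0.03 for genes with a mean of at least 12. Of the 46 genes, 34 lay below 0, where 8573 of all 18193 genes and 119 of the 208 bright genes did. At 1.5-fold, 0 members were higher, where 6.66% of all genes were, and 1, *Rpl39l*, was lower, where 7.47% of all genes were. The next lowest was *Rpl7*, a large-subunit protein, whose signal was 13.40 without and 12.89 with Dox (0.703-fold), and the highest was *Rps25* (1.46-fold). *Rps6* went from 10.40 to 9.96 (0.736-fold).

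Between untreated cultures, 36 of the 46 genes read higher in 2i than the mean of both arrays in LIF and serum. So did 7742 of all 18193 genes and 156 of the 208 genes with a mean of at least 12. The median difference of the members was 0.15 on the log2 scale (*Rps24* and *Rpl6* lay nearest to it), against -0.11 for all genes and 0.17 for the bright genes. Bright genes as a whole thus stood higher on the 2i array, whose 99th percentile of signal was 12.30 against 12.08 and 12.05. The sources used here do not say which arrays were normalized jointly. At 1.5-fold, *Rpl39l* (1.79-fold) and *Rps6* (1.70-fold) were higher, where 14.6% of all genes were, and *Rps25* (0.643-fold) was lower, where 19.8% of all genes were. *Rpl41*, the shortest ribosomal protein, was 0.669-fold, at a signal of 13.43 in 2i against 13.81 and 14.20.

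Late calls among the members' probe sets were found below a mean signal of 12 and not above it. Of the 33 member probe sets with a mean below 12, 10 fell late (limma, adjusted p under 0.05), where 5.4% of all named probe sets below 12 fell, and their median late difference was -0.63 on the log2 scale. Of the 67 with a mean of at least 12, 0 fell or rose late (0 calls, limma), where 5.23% of all named probe sets that bright fell, and their median was -0.01. The 22 second and further probe sets below 12 came from 15 genes, and 21 of them read lower late than on untreated array 2, with a median of -0.68, while the brightest probe sets of the same genes had a median of -0.03. The 32 second and further probe sets of at least 12 came from 17 genes and had a late median of 0.03, with 0 calls by limma, against -0.01 for the brightest probe sets of those genes. The plot of late change against mean signal shows the split.

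**Figure D4:**
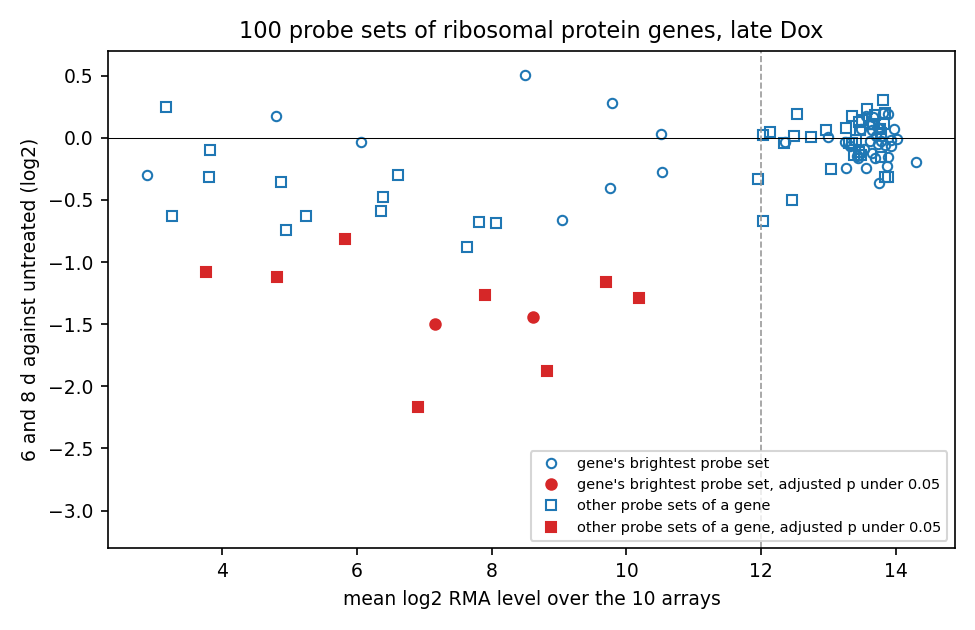
Difference of 6 and 8 d of Dox from untreated array 2 (log2, y axis) against mean log2 signal over the 10 arrays (x axis) for the 100 probe sets of ribosomal protein genes, circles for a gene's brightest probe set, squares for its others, filled where the adjusted p from limma was under 0.05. All 10 filled points lie left of the dashed line at 12, and to the right of it the differences stay between -0.67 and 0.30.

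*Rpl37a* is the clearest case. Its brightest probe set was 14.36 on untreated array 1 and 14.36, 14.37, 14.35 and 14.36 after 1, 2, 3 and 4 d of Dox, then 14.30 on untreated array 2 and 14.12 and 14.09 after 6 and 8 d. Its dimmest (1416218_x_at) was 10.05, then 9.27, 9.14, 8.71 and 8.11, and in the other set 9.30, then 7.38 and 7.48. This second series fell at every step to 4 d, and all 6 Dox arrays lay below both untreated arrays. The late difference was -1.87 (95% interval -2.48 to -1.27, adjusted p = 0.00507 from limma), and 3 and 4 d had already fallen (adjusted p = 0.0131 from limma). In 2i this probe set was 9.35 without and 9.31 with Dox.

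A dim probe set of *Rps3* (1455600_at), a small-subunit protein that also takes part in DNA repair, was 10.43 on untreated array 1 and 10.23, 10.51, 10.35 and 9.92 after 1, 2, 3 and 4 d of Dox, then 10.49 on untreated array 2 and 9.02 and 9.39 after 6 and 8 d. Its late difference was -1.29 (adjusted p = 0.0209 from limma), where the brightest probe set of *Rps3* gave -0.02. A dim probe set of *Rps18* (1421837_at) had a mean signal of 5.82 and gave -0.81 (adjusted p = 0.0349 from limma). One of *Rpsa* (1416196_at) gave -1.08 (adjusted p = 0.0197 from limma) at a mean signal of 3.76, below the median of every array (5.14 to 5.33), and whether it stood above background was not tested. That probe set was 3.92 on untreated array 1 and 3.98, 3.68, 3.88 and 3.78 after 1, 2, 3 and 4 d of Dox, then 3.92 on untreated array 2 and 2.75 and 2.93 after 6 and 8 d. The dim probe sets of *Rps3*, *Rps18* and *Rpsa* read lower late against either untreated array.

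Other falls of this kind rest on untreated array 2. A dim probe set of *Rps9* (1426958_at) was 7.0 on untreated array 1 and 7.62, 8.00, 6.76 and 6.12 after 1, 2, 3 and 4 d of Dox, then 8.72 on untreated array 2 and 6.68 and 6.43 after 6 and 8 d. Its late difference was -2.17 against untreated array 2 (adjusted p = 0.00474 from limma), but -0.44 against untreated array 1. A dim probe set of *Rps24* (1455195_at) was 6.26 on untreated array 1 and 8.57, 8.97, 7.84 and 7.40 after 1, 2, 3 and 4 d of Dox, then 9.44 on untreated array 2 and 8.44 and 7.91 after 6 and 8 d. It rose early and fell late by the same test (adjusted p = 0.0488 and 0.0345 from limma), and the gap between the untreated arrays was wider than either change. Against the mean of both untreated arrays, 6 of the 10 probe sets still fell, and 2 further ones, of *Rps25* and *Rps3*, did too. Against untreated array 1, the median late difference of the 33 dim probe sets was -0.34.

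The beta-actin controls of the array also differed between arrays. The log2 signal of the 3′ probe set minus that of the 5′ probe set was 0.41 on untreated array 1 and 0.52 to 0.56 from 1 to 4 d, 0.88 on untreated array 2, 1.46 and 1.22 after 6 and 8 d, and 0.78 and 0.76 in 2i, while that of Gapdh stayed between -0.12 and 0.12. The sources used here do not place the probe sets within their transcripts, and the part of RNA quality in the falls was not tested. Of markers of other cells, 0 of 6 fibroblast genes, 1 of 5 primitive endoderm genes (*Pdgfra*) and 1 of 5 trophoblast genes (*Krt7*) rose with days of Dox. The summed fibroblast signal was 7.80 and 7.89 on the untreated arrays and 7.47 to 8.31 on the Dox arrays in LIF and serum, and that of trophoblast was 8.76 and 9.04 untreated and 8.62 to 10.40 with Dox, on the log2 scale. That of primitive endoderm was 7.29 and 7.02 untreated, 6.83 to 7.21 from 1 to 4 d, and 7.41 and 7.99 after 6 and 8 d. The part of these markers in the results was not tested. The 7 ESC markers had a median signal of 12.2, 2 of them (*Klf4* and *Nanog*) rose and 0 fell. In bulk RNA, fewer cells of a type and less RNA per cell cannot be told apart.

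Genes that work with the ribosomal proteins were read from the same fits, and their counts stand against the 5.75% of all genes that rose and the 5.33% that fell. The other mRNAs that start with a pyrimidine run, mostly of translation factors, gave 0 rises and 2 falls among 16 measured genes: *Eif4b*, a helicase cofactor in initiation, with a slope of -0.14 per day (adjusted p = 0.0157 from limma), and *Nap1l1*, a histone chaperone, with -0.14 (adjusted p = 0.0266 from limma). Their median log2 fold after Dox in 2i was -0.31, against -0.08 for the ribosomal protein genes. Of 14 measured regulators of the translation of such mRNAs, 1 rose, *Tsc1*, an inhibitor of mTOR (0.23 per day, adjusted p = 0.0084 from limma). Another 3 fell: *Eif4ebp2*, an inhibitor of the cap-binding protein (-0.21, adjusted p = 0.0042), *Larp1* (-0.14, adjusted p = 0.0195) and *Akt1s1*, a subunit and brake of mTOR complex 1 (-0.12, adjusted p = 0.0353), all from limma. In LIF and serum at 8 d, *Eif4ebp2* stood at 0.289-fold of untreated array 2 and 0.451-fold of untreated array 1, and *Tsc1* at 2.99-fold and 6.98-fold. *Larp1* stood at 0.471-fold and 0.797-fold, and *Akt1s1* at 0.520-fold and 0.771-fold, so the size of these 2 falls depended on the untreated array.

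Of 19 measured chaperones, importers and late assembly factors of ribosomal proteins, 0 rose and 2 fell: *Ipo5*, a nuclear importer (-0.13 per day, adjusted p = 0.0268 from limma), and *Nob1*, the nuclease that finishes 18S RNA (-0.16, adjusted p = 0.038 from limma). At 6 d *Ipo5* stood at 0.646-fold of untreated array 2 and 0.925-fold of untreated array 1, and at 8 d at 0.447-fold and 0.641-fold. In 2i, 4 of the 19 were at least 1.5-fold lower after Dox, the lowest being the importer *Ipo7* (0.476-fold), where 7.47% of all genes were. *Fau*, whose product is processed into a small-subunit protein, had a slope of -0.06 (adjusted p = 0.228 from limma), and the paralogues *Rpl22l1* and *Rpl7l1* -0.01 and -0.03. Of 11 measured genes of the MYC and MAX network, *Mycl* rose (0.13 per day, adjusted p = 0.025 from limma) and *Mxd3*, a repressor partner of MAX, fell (-0.17, adjusted p = 0.0274 from limma). In 2i, 8 of these 11 genes were at least 1.5-fold higher after Dox, among them *Myc* (2.56-fold), where 6.66% of all genes were. In the other direction, 1 was lower, *Mga* (a log2 fold of -0.74), where 7.47% of all genes were.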

How the data were processed

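The deposited values are log2 signals, which the authors made with background subtraction and robust multi-array analysis. RMA and affy are the tools in the submitters' processing notes, with no version. The table held 45101 probe sets, of which 64 controls were left out. The platform annotation gave 1 symbol to 34945, several to 932, and did not list 9160. A slope per day of Dox, with array set as covariate, and contrasts of 1 and 2, 3 and 4, and 6 and 8 d with the untreated array of the set were fitted to the deposited log2 values of the 8 arrays in LIF and serum with limma 3.58.1 (R 4.3.3), with Benjamini-Hochberg adjustment over 45037 probe sets and a threshold of 0.05. In the late contrast, untreated array 2 was assumed to vary like the pairs of Dox arrays. On simulated data, the fits found 89 of 100 probe sets given a slope of 0.25 and 34 of 100 given a late log2 change of 1. Far fewer probe sets were changed there than were called in the data, where 2344 rose and 2056 fell late. The adjustment of p depends on this, so these rates need not hold for the data. Arrays in 2i were compared as folds, counted at 1.5-fold. Python 3.11.15 with pandas 2.3.3 did the rest. The number of arrays limits the precision.

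The members, the gene lists and the naming rule were chosen with earlier results of these data known. The rule took the 8 steepest slopes each way, the 4 largest folds each way at 8 d, in 2i and between untreated cultures, the brightest and dimmest member, and a preset list of members. Up to 4 genes of each other list were named, by slope, and *Ipo7*, *Myc*, *Mga*, *Rpl22l1*, the genes with an E-box, the dim probe sets and some others were chosen after their values were seen. Alternatives are given below.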

Additional observations from a re-analysis of the deposited data

Results flagged for a closer look

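*Rps25* was higher after Dox in 2i, by 0.55 on the log2 scale (8.76 without and 9.31 with Dox), and lower on all 6 Dox arrays in LIF and serum, where its log2 fold over the untreated array of the set ran from -0.83 to -0.17 with a median of -0.53. It stands here because every array of one medium moved one way and the array of the other medium the opposite way. The difference between media was not tested, since 2i had 1 array in each group.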

How the results depend on the processing

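The 2 falling trends became 0 with Dox against untreated in place of days, 1 with log2(day + 1), 4 with the mean of a gene's probe sets (*Rpl37a* and *Rps9* added), 0 without the 6 and 8 d set, and 0 to 2 with each array left out. The 0 comes from leaving out untreated array 2. Among members with a mean of at least 12, a limit chosen after seeing the data, there were 0. The 2 late falls became 5 with the mean of probe sets (*Rpl37a*, *Rps9* and *Rpsa* added), 3 against the mean of both untreated arrays (*Rps25* added, -0.79, adjusted p = 0.041 from limma), stayed at 2 with each Dox array left out, and were 0 among members of at least 12. The 0 rises at 3 and 4 d became 1 with eBayes trend and robust. In 2i, counts at a lower fold limit were 1 higher and 4 lower. Between untreated cultures, the 2 higher became 4 against the first untreated array, 6 at the lower limit and 0 at 2-fold, and the 1 lower became 3 against the first array, 2 against the second, 5 at the lower limit, 0 at 2-fold and 3 with quantile normalization. The causes were not tested. The called falls of *Rps27* and *Rpl12* did not reverse under the alternatives run. Some late differences did change sign against the mean of both untreated arrays. That of *Rpl27a* went from 0.50 to -0.02, and the called late fall of the dim *Rps24* probe set (1455195_at) from -1.26 to 0.32. The median log2 fold of the members moved by less than 0.0864 on the log2 scale under each alternative. That value is the typical SD of a single member between the 2 untreated arrays in LIF and serum. Each median fold of the members after Dox was smaller in size than it, so a move below it could still change the sign of a median. No paired analysis was possible because the Dox groups hold 1 array each. Leaving out untreated array 2 gives no late contrast.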
